A study of Homo sapiens with 16 samples.

Results

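The genes described here are 10 genes listed as induced by ERK signalling and as limiting it. They are the dual-specificity phosphatases DUSP1, DUSP4, DUSP5, DUSP6 and DUSP10, the Sprouty genes SPRY1, SPRY2 and SPRY4, and the Sprouty-related genes SPRED1 and SPRED2. The products of DUSP1 and DUSP10 also act on the MAP kinases JNK and p38, which that of DUSP10 prefers to ERK. The 10 genes were chosen by name from 35810 genes in the libraries, with earlier results of these data known. All 10 passed the filter on low counts that left 16705 genes for testing. RNA was sequenced from day 19 pancreatic progenitors (D19 PPs) made in culture from an NGN3-GFP reporter line of SA121 human embryonic stem cells, so all 6 groups share this genotype, line and stage. The 2 control groups were taken at 0 h (n = 3) and after 24 h in DMSO, the vehicle (n = 2). The label of control 0 h also names DMSO, although the series text places that harvest before treatment, so it is not certain that these cells saw the vehicle. The other 4 groups received 0.5 µM latrunculin B (LatB), which sequesters actin monomers and so depolymerises the actin cytoskeleton, for 3 h (n = 3), 6 h (n = 3), 12 h (n = 2) or 24 h (n = 3). No vehicle library of 3, 6 or 12 h was analysed here, so at these times the drug and the time since control 0 h cannot be told apart. All libraries come from 1 reporter line. The labels do not say whether replicates were separate cultures, so the p-values measure the spread between these libraries, which may be technical.

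ERK is the last kinase of the RAS, RAF and MEK cascade that carries signals from growth factor receptors to the nucleus. Its transcriptional output includes its own brakes, so the mRNA of these genes is often read as a record of recent ERK activity. DUSP phosphatases remove both phosphates from the activation loop of MAP kinases, Sprouty proteins act between the receptor and RAF, and SPRED proteins bring the RAS-inactivating protein neurofibromin to the membrane. In the pancreas, FGF and EGF receptor signals through this route are known for the growth of progenitors.

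Positions are those of GENCODE on GRCh38. DUSP1 (ENSG00000120129.6), on chromosome 5 from 172768096 to 172771195, encodes a nuclear phosphatase of ERK, JNK and p38. DUSP4 (ENSG00000120875.9), whose position is given with its values, encodes a nuclear relative of it. DUSP5 (ENSG00000138166.6; chromosome 10, 110497907 to 110511533) encodes a nuclear phosphatase specific for ERK, and DUSP6 (ENSG00000139318.8; chromosome 12, 89347235 to 89352501) its cytoplasmic counterpart. DUSP10 (ENSG00000143507.18; chromosome 1, 221701424 to 221742089) encodes a phosphatase that prefers JNK and p38 to ERK. The Sprouty genes are SPRY1 (ENSG00000164056.11; chromosome 4, 123396795 to 123403760), SPRY2 (ENSG00000136158.12; chromosome 13, 80335976 to 80341126) and SPRY4 (ENSG00000187678.10; chromosome 5, 142310427 to 142326455). SPRED1 (ENSG00000166068.13) lies on chromosome 15, 38252836 to 38357249, and SPRED2 (ENSG00000198369.10) on chromosome 2, 65310851 to 65432637. The annotation places another gene on the opposite strand over the whole of DUSP1 and over part of DUSP6. Several genes on the opposite strand lie over parts of SPRY4, and another gene on the same strand lies within SPRED2. No source says whether the counting used strand, so reads of these pairs cannot be told apart with certainty.

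The bases just upstream of 3 of these genes are shown because their mRNA moved in different ways: DUSP10 and SPRY2 rose first and DUSP1 fell. Each run is the 250 bases that end at the base before the RefSeq start site, 5′ to 3′ on the strand of the gene (RefSeq, GRCh38.p14; minus strand in all 3). The start site is also the 5′ end of the transcript that carried most of the gene's abundance. Capitals mark the motifs found among those searched on both strands: the cAMP response element TGACGTCA, its core TGACG, the AP-1 element TGAGTCA or TGACTCA, the E-box CACGTG, the ETS motif CCGGAAG, the TEAD motif GGAATG, the serum response (CArG) element by name, the TATA element TATAAA and the GC box GGGCGG. This core also lies within the full cAMP response element.
DUSP1, chr5:172771196-172771445, minus strand: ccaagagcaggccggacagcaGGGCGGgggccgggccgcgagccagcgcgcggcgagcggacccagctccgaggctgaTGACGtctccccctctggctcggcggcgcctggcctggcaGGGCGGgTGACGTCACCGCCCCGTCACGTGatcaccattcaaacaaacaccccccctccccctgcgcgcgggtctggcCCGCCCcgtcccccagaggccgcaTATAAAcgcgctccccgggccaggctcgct
DUSP10, chr1:221742090-221742339, minus strand: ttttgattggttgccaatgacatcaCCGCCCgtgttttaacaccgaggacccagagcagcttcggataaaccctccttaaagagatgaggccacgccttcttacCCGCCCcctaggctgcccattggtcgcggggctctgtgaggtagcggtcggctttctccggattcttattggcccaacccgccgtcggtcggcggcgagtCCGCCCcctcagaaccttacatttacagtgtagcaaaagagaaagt
SPRY2, chr13:80341127-80341376, minus strand: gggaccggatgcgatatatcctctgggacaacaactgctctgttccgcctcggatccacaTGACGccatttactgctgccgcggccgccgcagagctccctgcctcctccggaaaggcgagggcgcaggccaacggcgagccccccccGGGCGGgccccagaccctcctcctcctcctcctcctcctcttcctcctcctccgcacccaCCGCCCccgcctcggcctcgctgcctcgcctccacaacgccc
The DUSP1 sequence held a cAMP response element from 125 to 118 bases before the start site, an E-box from 108 to 103 bases before it and a TATA element from 30 to 25 bases before it. Of 35116 RefSeq promoters of the same length, 1.65% held the full cAMP response element, 6.34% the E-box and 10.7% the TATA element. The DUSP10 and SPRY2 sequences held none of these 3. SPRY2 held 1 such core, which 21.2% of promoters hold. The GC box was in all 3 sequences and in 42.6% of promoters. No AP-1, ETS, TEAD or CArG match lay in any of the 3 windows, against shares of 4.20%, 8.52%, 11.9% and 1.16% of promoters. The matches describe letters and not binding, in 3 genes picked by how their mRNA moved. Whether a motif goes with a rise or a fall was not tested.

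The libraries held 23609727 to 33515398 estimated reads, and the lowest count behind any member was 227 reads, for SPRY4. CCN1, CCN2 and ANKRD1, 3 actin-dependent targets of YAP, were all lower in all 4 comparisons of LatB with control. Their sum was 508 to 629 CPM (read counts scaled to library sizes of equal, TMM-adjusted depth) in the controls and 11.9 to 96.9 CPM in the LatB libraries. Under LatB it was 11.9 to 19.1 CPM at 12 h and 28.3 to 96.9 CPM at 24 h. All 3 genes were called higher at 24 h than at 12 h of LatB. Of 9 progenitor markers, 8 were above 1 CPM, with PDX1, SOX9 and GP2 among them, and PTF1A was not. One library stood apart. LatB 12 h replicate 2 correlated with its partner at a Pearson r of 0.967 across genes (genes are not independent replicates), against 0.980 to 0.986 in the other groups. Its 5 mesenchyme markers summed to 786 CPM against 142 CPM in replicate 1 and at most 192 CPM elsewhere, with COL3A1 at 684 CPM, its 3 endothelial markers to 40.2 CPM against 9.58 CPM, and its 3 acinar markers to 43.3 CPM against 11.3 CPM. Values at 12 h are therefore given per library, and the part of these markers in them was not tested.

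Before treatment DUSP5 was by far the most abundant of the 10 genes per unit of length, at 457 ± 19.0 TPM (an abundance that corrects for transcript length; SD, n = 3). DUSP1 followed at 75.8 ± 4.01 TPM, SPRY2 at 47.0 ± 3.94 TPM and DUSP6 at 40.6 ± 4.19 TPM, and none of these neighbours overlapped. DUSP10 (15.3 ± 1.49 TPM), SPRY1 (13.8 ± 0.77 TPM), SPRED1 (11.8 ± 3.04 TPM) and DUSP4 (10.7 ± 0.85 TPM) formed a run in which each overlapped the next. SPRED2 (8.67 ± 0.68 TPM) and SPRY4 (4.63 ± 0.46 TPM) were the lowest. All of DUSP1, at least 98.8% of DUSP4 and at least 99.5% of DUSP5 in every library came from 1 transcript each. DUSP6 was split among 3 protein-coding transcripts with 37.3%, 30.0% and 26.6% of its TPM on average, and a transcript marked for nonsense-mediated decay held 18.4% of DUSP10.

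**Figure D1:**
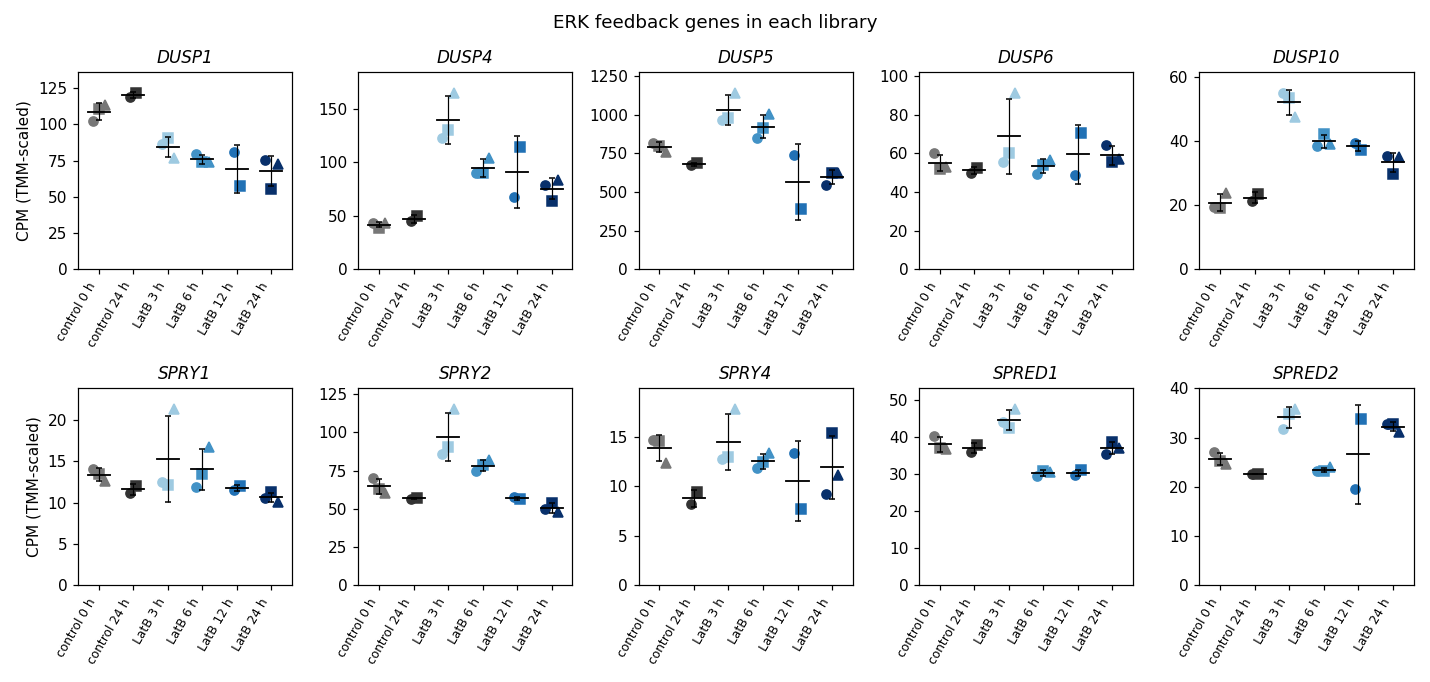
CPM of each of the 10 genes in each library, by group, with circles, squares and triangles for replicates 1, 2 and 3, and the mean ± SD as bars. DUSP4 and DUSP10 lie above both controls in every LatB library and DUSP1 below, while DUSP5, SPRY4 and SPRED2 split the 2 libraries at 12 h.

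The first comparison asked how these genes stood after 3 h of LatB, when the actin-dependent genes had already fallen. At 3 h, 5 of the 10 were higher than in control 0 h and 1 was lower (edgeR, adjusted p under 0.05 over all genes tested), and 4 did not pass. Of all genes tested, 31.6% were called in this comparison. The median log2 fold change of the 10 genes was 0.35, against 0.00 over all genes. In bulk RNA, a change in the number of cells that express a gene and a change of its RNA per cell cannot be told apart.

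DUSP4, which lies on chromosome 8 from 29333064 to 29350684, rose most. Its CPM was 43.5, 38.7 and 43.3 in the 3 libraries of control 0 h and 123, 131 and 165 at 3 h. The groups lay far apart, and DUSP4 rose by 1.74 on the log2 scale (SE 0.17, edgeR adjusted p 7.09e-06), a 3.34-fold rise. DUSP10 was at 19.3, 19.2 and 23.9 CPM before treatment and at 55.1, 53.6 and 47.7 CPM at 3 h, again with no overlap. The rise was 1.33 on the log2 scale (SE 0.09, edgeR adjusted p 4.83e-07). These were also the 2 genes of the 10 with a log2 change of at least 1 at 3 h.

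The Sprouty genes did not move as a set. SPRY2, which blocks signalling from FGF receptors towards RAS, was at 70.5, 63.0 and 60.6 CPM in control 0 h and at 86.1, 90.2 and 115 CPM at 3 h. All 3 treated libraries were above all 3 controls, by 0.59 on the log2 scale (SE 0.09, edgeR adjusted p 0.00035). SPRY1 was at 12.6 to 14.1 CPM in control 0 h and at 12.5, 12.2 and 21.3 CPM at 3 h, where 1 library was above the controls and the other 2 below them. Its log2 fold change of 0.19 had an interval of ± 2 SE from -0.17 to 0.56. That of SPRY4 (0.06) ran from -0.35 to 0.48, so neither gene was shown to rise or fall against control 0 h.

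Both SPRED genes were called higher at 3 h, with smaller changes that depend on the processing. SPRED1 went from 40.3, 36.9 and 36.9 CPM to 43.96, 42.4 and 47.5 CPM, higher by 0.23 on the log2 scale (SE 0.06, edgeR adjusted p 0.00627). SPRED2 went from 27.1, 25.2 and 24.7 CPM to 31.8, 34.9 and 35.8 CPM, higher by 0.41 (SE 0.13, edgeR adjusted p 0.0314). The groups did not overlap for either gene. For SPRED1 the threshold was missed in the absence of scaling (0.15, edgeR adjusted p 0.0598), with an offset for transcript length (0.14, edgeR adjusted p 0.599) and by limma on log2(TPM + 1) (0.0758, adjusted p 0.792) or log2(TPM + 0.1). SPRED2 lost its call in the same 4 settings (0.33 to 0.47) and without control 0 h replicate 2 (0.38) or 3 (0.39) or LatB 3 h replicate 2 (0.38).

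DUSP1 was the 1 member that was lower: its 102, 111 and 113 CPM of control 0 h compared with 86.5, 90.5 and 76.6 CPM at 3 h (-0.36, SE 0.12, edgeR adjusted p 0.0334). This call of DUSP1 was lost without control 0 h replicate 2 (-0.37) or 3 (-0.33) or LatB 3 h replicate 1 (-0.40), with adjusted p of 0.0721, 0.0995 and 0.0519.

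The phosphatases most specific for ERK did not pass at 3 h. DUSP5 was at 819, 798 and 758 CPM in control 0 h and at 966, 978 and 1140 CPM at 3 h. The groups did not overlap, but the log2 fold change of 0.38 missed the threshold (SE 0.16, edgeR adjusted p 0.0967). DUSP5 was called at 3 h in 3 of 19 alternatives. These were control 24 h as reference (0.60), only the groups compared in the fit, and the LatB 12 h group left out of the fit. The last, added after the data were seen, gave the same change (edgeR adjusted p 0.00173). At 6 h DUSP5 was called in 2 of 19 alternatives, with only the groups compared and with the 12 h group left out. DUSP6 was at 59.9, 52.1 and 53.1 CPM in control 0 h and at 55.6, 60.02 and 91.2 CPM at 3 h. The groups overlapped, with 1 library high (0.32, SE 0.17, edgeR adjusted p 0.158).

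One library stood above the others of its group. LatB 3 h replicate 3 was the highest of its group for 8 of the 10 genes, the exceptions being DUSP1 and DUSP10, for which it was the lowest. It was also the highest of its group for 9 of 12 other ERK output genes tested, MYC among them at 129 CPM against 72.3 and 74.9 CPM. Without this library 3 members were called at 3 h, all higher: DUSP4 (1.58, edgeR adjusted p 4.86e-05), DUSP10 (1.37, edgeR adjusted p 2.09e-06) and SPRY2 (0.43, edgeR adjusted p 0.00072). SPRED1 (0.16, edgeR adjusted p 0.0537), SPRED2 (0.36, edgeR adjusted p 0.115) and DUSP1 (-0.32, edgeR adjusted p 0.107) kept their direction and lost their calls, and SPRY1 (-0.14) and SPRY4 (-0.13) changed sign.

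**Figure D2:**
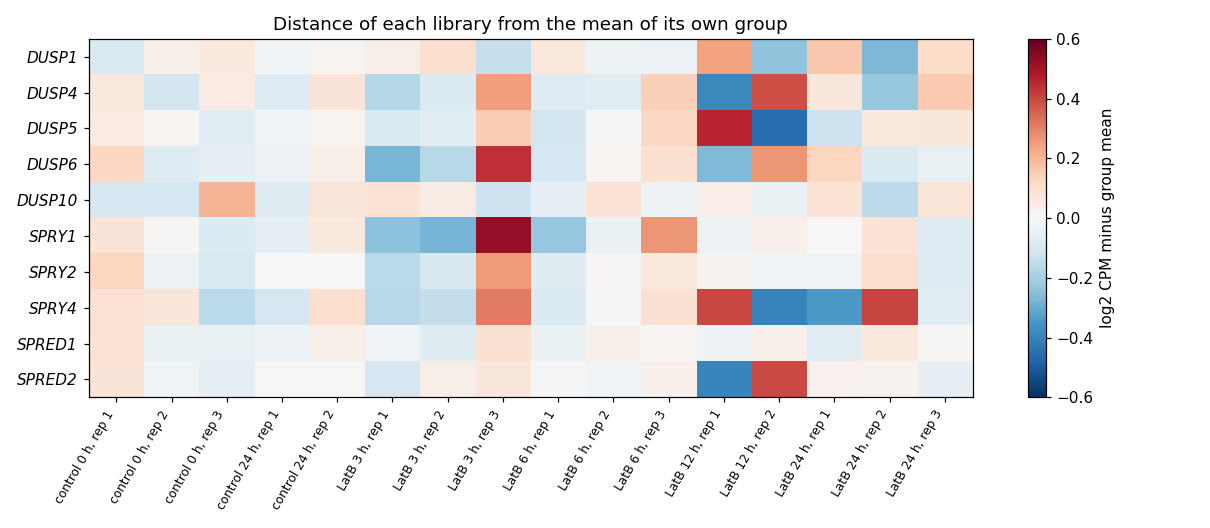
Log2 CPM of each gene in each library minus the mean of its own group, in red above it and in blue below it. LatB 3 h replicate 3 stands above its group for most genes, and the 2 libraries of 12 h, which always mirror each other, lie farthest apart for DUSP5, DUSP4, SPRY4 and SPRED2.

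Compared with control 0 h, 3 of the 10 genes were higher and 2 lower at 6 h, when 43.3% of all genes were called. The share of members was thus close to that of all genes. DUSP4 was at 89.7, 90.1 and 105 CPM, still above every control library (1.18, SE 0.17, edgeR adjusted p 0.000107). DUSP10 was at 38.7, 42.4 and 39.2 CPM (0.95, SE 0.09, edgeR adjusted p 4.83e-06). SPRY2, at 74.5, 78.7 and 81.8 CPM, was closer to the controls and still above all 3 (0.28, SE 0.09, edgeR adjusted p 0.0294). This call of SPRY2 was lost without scaling (0.18), by limma with either pseudocount (0.18), and without control 0 h replicate 2 (0.24) or 3 (0.23) or LatB 6 h replicate 2 (0.25) or 3 (0.22). SPRED1, above the controls at 3 h, was now lower than control 0 h, at 29.5, 30.9 and 30.6 CPM (-0.33, SE 0.06, edgeR adjusted p 0.00042). With the length offset SPRED1 was not called at 6 h (-0.32, edgeR adjusted p 0.150) or at 12 h (-0.42, edgeR adjusted p 0.108), nor was it by limma with either pseudocount. DUSP1 was at 79.3, 74.3 and 73.9 CPM (-0.52, SE 0.12, edgeR adjusted p 0.00342).

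Set directly against 3 h, 5 of the 10 genes were called at 6 h, all of them lower, when 22.2% of all genes were called. All 10 fold changes were negative, with a median of -0.34 against -0.01 over all genes. SPRED1 fell by 0.56 on the log2 scale (SE 0.06, edgeR adjusted p 2.42e-05), and its 3 libraries of 6 h lay below all 3 of 3 h. SPRED2 fell by 0.54 (SE 0.13, edgeR adjusted p 0.0118), from 31.8 to 35.8 CPM at 3 h to 23.2 to 24.0 CPM at 6 h. DUSP4 fell by 0.56 (SE 0.17, edgeR adjusted p 0.0278), DUSP10 by 0.38 (SE 0.09, edgeR adjusted p 0.00937) and SPRY2 by 0.31 (SE 0.09, edgeR adjusted p 0.0294). Without LatB 3 h replicate 3, 3 of the 5 calls were left, and those of DUSP4 (-0.42) and SPRY2 (-0.17) were lost. Both were also lost without LatB 6 h replicate 1 (DUSP4 -0.52, SPRY2 -0.27) or replicate 2 (DUSP4 -0.52, SPRY2 -0.31). The fall of SPRED1 was not called with an offset for transcript length (-0.46, edgeR adjusted p 0.0819), and neither was that of SPRED2 (-0.51, edgeR adjusted p 0.0653), and limma with either pseudocount called neither. DUSP1, DUSP5, DUSP6, SPRY1 and SPRY4, whose 2 groups overlapped, were not called.

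By 12 h, 2 of the 10 genes stood higher than in control 0 h and 2 lower, when 35.8% of all genes were called. DUSP10 was close in both libraries, at 39.5 and 37.4 CPM (0.89, SE 0.10, edgeR adjusted p 2.91e-05). SPRED1 was also close in both, at 29.7 and 31.0 CPM (-0.32, SE 0.06, edgeR adjusted p 0.00152). DUSP4 was at 67.4 and 115 CPM in replicates 1 and 2, both above every control (1.13, SE 0.19, edgeR adjusted p 0.000454). DUSP1 was at 80.8 and 57.6 CPM, both below every control (-0.66, SE 0.14, edgeR adjusted p 0.00238).

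For DUSP5, DUSP6, SPRY4 and SPRED2 the 2 libraries of 12 h lay far apart. DUSP5 was at 736 and 390 CPM in replicates 1 and 2, both below control 0 h, and was not called (-0.49, SE 0.18, edgeR adjusted p 0.0524). SPRED2 was at 19.5 and 33.8 CPM, 1 below and 1 above all controls, so no direction can be given. With replicate 2 alone SPRED2 was called higher (0.39, edgeR adjusted p 0.00127), and with replicate 1 alone it was called lower (-0.40, edgeR adjusted p 0.00273). In these fits the lone library was taken to vary as the other groups do. DUSP6 was at 48.6 and 70.3 CPM, likewise 1 below and 1 above the control 0 h libraries. SPRY4 was at 13.3 CPM, within the controls, and at 7.68 CPM, below them. SPRY1 (11.5 and 12.0 CPM) and SPRY2 (57.8 and 56.3 CPM) were close in both libraries and below all of control 0 h, and neither was called (-0.19 and -0.18). Without replicate 1, the log2 fold change at 12 h was -1.02 for DUSP5 and -0.85 for SPRY4. Replicate 2 is the library with 786 CPM of mesenchyme markers.

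From 6 h to 12 h, 2 members were called, both lower, when 29% of all genes were called. SPRY2 fell from 74.5 to 81.8 CPM to 57.8 and 56.3 CPM (-0.46, SE 0.11, edgeR adjusted p 0.00646), back under the 60.6 CPM of the lowest control 0 h library. DUSP5 fell by 0.71 (SE 0.19, edgeR adjusted p 0.0119), and this call was lost without LatB 12 h replicate 2 (-0.33) and with only the 2 groups in the fit (-0.70, edgeR adjusted p 0.138). From 12 h to 24 h, 1 member was called, when 11.7% of all genes were: SPRED1 rose to 35.3, 38.5 and 37.1 CPM (0.28, SE 0.06, edgeR adjusted p 0.0134), within the range of 36.1 to 40.3 CPM of the 5 control libraries but for 1 library below it. This rise of SPRED1 was not called with the length offset (0.47), by limma with either pseudocount (0.42 and 0.46) or with only the 2 groups in the fit (0.27).

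The LatB libraries of 24 h were set against the DMSO libraries of 24 h. Here 3 of the 10 genes were higher and 1 was lower, when 40.8% of all genes were called, so the members were called about as often as other genes. The median log2 fold change of the 10 was 0.10, against 0.01 over all genes. DUSP4 was at 44.7 and 49.6 CPM in control 24 h and at 78.7, 64.2 and 83.6 CPM under LatB (0.68, SE 0.19, edgeR adjusted p 0.0124). DUSP10 was at 21.3 and 23.6 CPM in control 24 h and at 35.3, 29.9 and 35.1 CPM under LatB (0.57, SE 0.11, edgeR adjusted p 0.00079). SPRED2 was higher again, at 32.9, 32.7 and 31.2 CPM against 22.6 and 22.6 CPM (0.51, SE 0.15, edgeR adjusted p 0.0161). None of these groups overlapped. Without control 24 h replicate 1, 2 of the 4 calls were left, and DUSP4 (0.60, edgeR adjusted p 0.106) and SPRED2 (0.51, edgeR adjusted p 0.0895) lost theirs. SPRED2 also lost its call without control 24 h replicate 2 (0.51, adjusted p 0.0739 in edgeR), when control 0 h was the reference (0.33, adjusted p 0.0634) and by limma on log2(TPM + 1) (0.54, adjusted p 0.0615) or log2(TPM + 0.1).

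DUSP1 had its lowest group mean at 24 h, with 75.1, 55.7 and 72.5 CPM against 119 and 122 CPM in control 24 h. The change was -0.83 on the log2 scale (SE 0.13, edgeR adjusted p 0.000302), which is 0.56 times the control level. DUSP1 was thus lower in all 4 comparisons of LatB with control, and DUSP4 and DUSP10 were higher in all 4, apart from the losses given for DUSP1 at 3 h and DUSP4 at 24 h. The comparisons at 3, 6 and 12 h share the control 0 h libraries, while the one at 24 h uses others. SPRY2 (-0.17, interval of ± 2 SE -0.38 to 0.04), SPRED1 (-0.00, -0.13 to 0.12), DUSP5 (-0.19, -0.55 to 0.18), DUSP6 (0.20, -0.17 to 0.57), SPRY1 (-0.13, -0.53 to 0.28) and SPRY4 (0.44, -0.04 to 0.92) did not pass at 24 h. The intervals of SPRY1, SPRY2, SPRY4, DUSP5 and DUSP6 are wide enough to hold a change of 0.33, the size called in SPRED1 at 6 h.

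**Figure D3:**
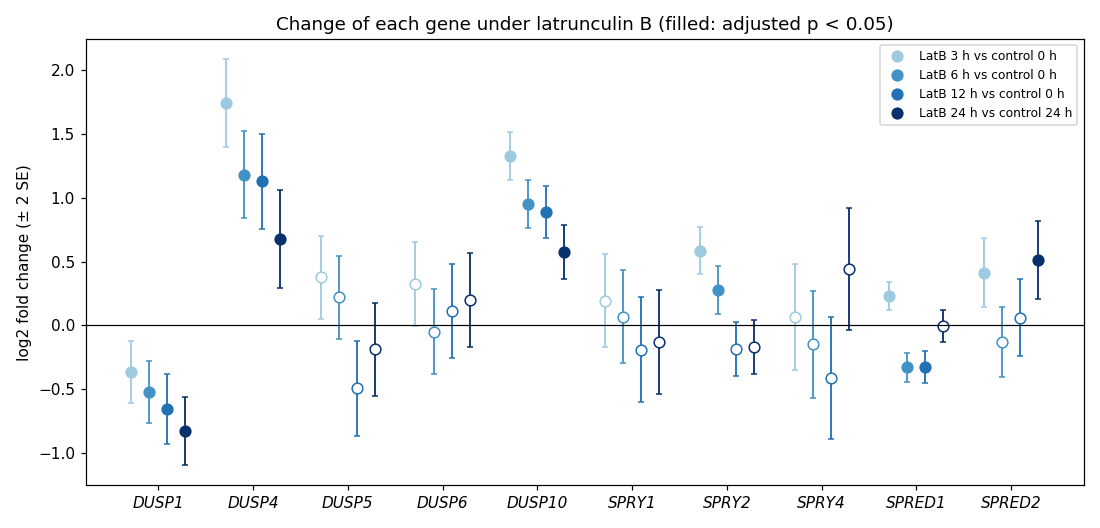
Log2 fold change of each gene in the 4 comparisons of LatB with its control, with bars of ± 2 SE; filled points passed an adjusted p of 0.05 and open points did not. DUSP4 goes from 1.74 at 3 h to 0.68 at 24 h and DUSP10 from 1.33 to 0.57, while DUSP1 goes from -0.36 to -0.83.

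The change between early and late effects was tested directly, as the effect at 24 h (against control 24 h) minus that at 3 h (against control 0 h). The difference was called in 3 of the 10 genes, all of them negative, when 27.9% of all genes were called. The differences were -1.06 for DUSP4 (SE 0.25, edgeR adjusted p 0.00705), -0.75 for DUSP10 (SE 0.14, edgeR adjusted p 0.00152) and -0.76 for SPRY2 (SE 0.14, edgeR adjusted p 0.00158). CCN1, CCN2 and ANKRD1 had themselves risen again from 12 h to 24 h of LatB. The part of this in the differences was not tested. The larger fall of DUSP1 at 24 h was not called as a difference (-0.46, SE 0.18, edgeR adjusted p 0.0705). SPRED1, at 0.23 at 3 h and -0.00 at 24 h, also missed the threshold (-0.23, SE 0.08, edgeR adjusted p 0.0533). So did DUSP5, at 0.38 and -0.19 (-0.56, SE 0.24, edgeR adjusted p 0.102). With the 12 h group left out of the fit these last 3 passed as well, so that 6 members were called. The share of all genes called in that fit was not computed.

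Between the 2 controls, 0 of the 10 genes were called by edgeR, when 0.251% of all genes were called. At an unadjusted edgeR p under 0.05, 1 member passed, beside 1414 of all 16705 genes tested, and DESeq2 called 0 members. The 1 was SPRY4, at 14.7, 14.5 and 12.3 CPM in control 0 h and 8.17 and 9.39 CPM in control 24 h (-0.66, SE 0.24, edgeR adjusted p 0.390). Control 24 h replicate 2 was above replicate 1 for all 10 genes. The 2 controls did not overlap for 7 of the 10 genes, as many as in each of the 4 comparisons of LatB with control. Lack of overlap between groups of 2 or 3 libraries therefore does not by itself show an effect of the drug. The share of all genes without overlap was not computed. The choice of control bears on SPRY4 and SPRY2. At 24 h the log2 fold change of SPRY4 was 0.44 against control 24 h and -0.22 against control 0 h, called in neither. At 3 h SPRY4 was called higher against control 24 h (0.72, edgeR adjusted p 0.0338) and not against control 0 h. SPRY2 at 24 h was called lower against control 0 h (-0.36, edgeR adjusted p 0.00838) and not against control 24 h. With control 24 h as reference, 8 members were called at 3 h, 7 of them higher and 1 lower. The share of all genes called with that reference was not computed.

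The genes around these brakes were counted from lists of the pathway. Of 17 genes of the ERK cascade itself, 11 were higher and 2 lower at 3 h, with a median log2 fold change of 0.24, when 31.6% of all genes were called. BRAF, the RAF kinase with the highest basal activity, rose most (0.95, SE 0.10, edgeR adjusted p 8.78e-06), and KSR1, a scaffold of the cascade, fell most (-0.33, SE 0.11, edgeR adjusted p 0.0426). At 6 h, 8 were higher and 1 lower (43.3% of all genes called), at 12 h 1 and 4 (35.8%), and at 24 h 2 and 1 (40.8%), where HRAS led the rises (0.52, SE 0.12) and the adaptor GAB1 the falls (-0.54, SE 0.07).

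Of 12 other ERK output genes tested, 4 were higher and 1 lower at 3 h, against 31.6% of all genes called. MYC, the transcription factor that drives growth, rose by 2.48 (SE 0.26, edgeR adjusted p 1.18e-05), and the ephrin receptor gene EPHA2 fell (-0.41, SE 0.12, edgeR adjusted p 0.0211). The counts were 4 higher and 4 lower at 6 h (43.3% of all genes), 3 and 3 at 12 h (35.8%), and 3 and 2 at 24 h (40.8%), where MYC (1.44, SE 0.30) and EPHA2 (-0.59, SE 0.14) were again the extremes. IER3 of this list was not tested, being listed at 0 in all libraries.

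Of 19 receptor and ligand genes tested, 4 were higher and 2 lower at 3 h, close to the 31.6% of all genes called, led by AREG, an EGF receptor ligand (1.34, SE 0.16, edgeR adjusted p 3.75e-05), and by a fall of FGFR3, an FGF receptor gene (-0.72, SE 0.12, edgeR adjusted p 0.000637). At 6 h, 7 were higher and 5 lower (43.3% of all genes), at 12 h 3 and 4 (35.8%), and at 24 h 1 and 4 (40.8%), with MET, the receptor of hepatocyte growth factor, higher (0.51, SE 0.17) and FGFR3 much lower (-1.79, SE 0.14, edgeR adjusted p 1.33e-06). FGF1 was not tested.

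The next list held brakes outside the 3 families. Of 9 such genes, 2 were higher at 3 h, 7 at 6 h and 3 at 12 h, all the calls at these times being rises, against 31.6%, 43.3% and 35.8% of all genes called. LRIG3 rose most at 3 h (0.82, SE 0.07, edgeR adjusted p 1.27e-06). At 24 h, 2 were higher and 1 lower (40.8% of all genes), with IL17RD, which encodes an inhibitor of FGF signalling, higher (0.60, SE 0.11) and the ubiquitin ligase gene CBLB lower (-0.33, SE 0.09). Of 9 other DUSP, SPRY and SPRED genes tested, 3 were higher and 1 lower at 3 h, 1 and 3 at 6 h, 2 and 4 at 12 h, and 2 and 4 at 24 h, beside 31.6%, 43.3%, 35.8% and 40.8% of all genes. DUSP8 led at 3 h (0.99, SE 0.20) and DUSP22 fell (-0.19, SE 0.06), while at 24 h DUSP7, which encodes a cytoplasmic phosphatase of ERK, was higher (0.71, SE 0.12) and DUSP9, another of that kind, was lower (-1.17, SE 0.13). DUSP2 was not tested.

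**Figure D4:**
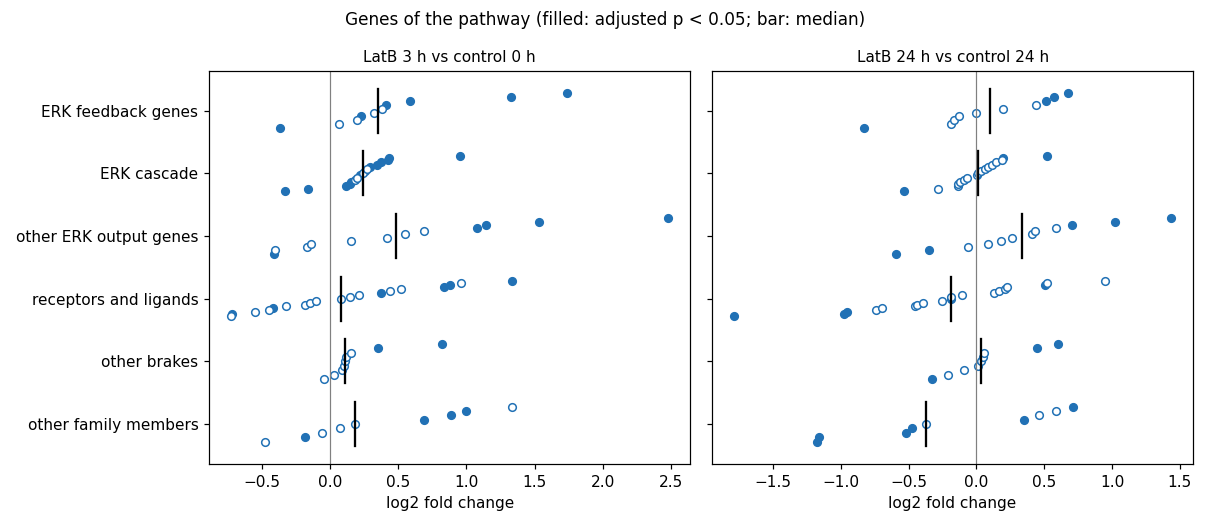
Log2 fold change at 3 h and at 24 h of each tested gene in 6 lists, with filled points for an adjusted p under 0.05 and a bar at the median of the list. At 3 h the median of the 10 ERK feedback genes is 0.35 and that of the cascade 0.24, and at 24 h they are 0.10 and 0.01.

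Since DUSP1 and other members respond to handling and stress too, 4 stress genes were counted beside them. ATF3, a stress-response transcription factor gene, rose by 1.61 at 3 h (SE 0.10, edgeR adjusted p 2.63e-07) and by 1.203 at 24 h (SE 0.12, edgeR adjusted p 8.61e-06). Of the 4 genes, 2 were higher at 3 h, 1 higher and 1 lower at 6 h, 2 higher at 12 h and 3 higher at 24 h. The shares of all genes called were 31.6%, 43.3%, 35.8% and 40.8%. HSPA1B, 1 of the 4, was uneven within groups, with 0, 0 and 539 reads in the 3 libraries of LatB 3 h. The part of stress in the changes of the 10 genes was not tested. The endocrine markers moved with time as well. Their 7 genes summed to 37.8 to 46.9 CPM in control 0 h, 72.7 to 85.9 CPM in control 24 h, 66.9 to 113 CPM at 3 h and 106 to 334 CPM at 24 h of LatB, and their part was not tested either.

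The genes whose profile over the 6 group means was nearest to each member were sought among 10437 genes, by the root mean square difference of log2 CPM centred on the mean of the 6 groups. DUSP4 and DUSP10 were alike: DUSP10 was the second nearest gene to DUSP4, at 0.13, on a range of 1.73 for DUSP4, and MYLIP was the nearest to both, at 0.12 and 0.094. HERPUD1 came second for DUSP10 (0.11). For DUSP1 the nearest were TUBG2 (0.033) and SMARCD3 (0.046), on a range of 0.84. SPRY2 was nearest to ERN1 (0.058) and RELL1 (0.060), SPRED1 to EFR3B (0.038) and KCTD9 (0.045), and SPRED2 to ETV6 (0.057) and ZNF653 (0.060). For the members that did not pass against control, the nearest were AEBP1 (0.051) and PTPRJ (0.052) to DUSP5, FBXO33 (0.046) and CSGALNACT2 (0.047) to DUSP6, YBX3 (0.032) and RBPMS2 (0.032) to SPRY1, and LIG1 (0.058) and NUP210 (0.067) to SPRY4. With 6 group means, 1 of them from libraries that disagree, these distances are a description.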

How the data were processed

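Poly(A) RNA of 16 libraries (NEBNext kits, NextSeq 500) was quantified by the authors, who deposited, per transcript, estimated counts and TPM. The submitters' processing notes name Salmon 1.3.0, DESeq2 and hg38. The study's methods describe another aligner with GENCODE 32, so the settings behind the deposited estimated counts are not certain. Transcripts were summed to genes by GENCODE 44, which matched 165533 of 177456 transcripts, and the unmatched ones held 2.92% to 3.17% of reads. The deposited table of the authors' fold changes and p-values, with its 16 per-sample columns, was not used.

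Summed counts were rounded and fitted in edgeR 4.0.16 (R 4.3.3) by the quasi-likelihood test, with TMM scaling, filterByExpr and all 6 groups in 1 model. The 9 contrasts were two-sided, with Benjamini-Hochberg adjustment over 16705 genes, and the script was tested on simulated data. The SE is the log2 fold change over the square root of F. CPM uses TMM-scaled library sizes. Levels of different genes were compared as TPM. The alternatives used DESeq2 1.42.0, limma 3.58.1 on log2(TPM + 1) and log2(TPM + 0.1), other scalings and filters, a length offset, a replicate block, the other control, the compared groups alone and each library left out. The 10 genes and the lists were chosen with earlier results of these data known. From each list the gene with the largest called rise and fall at 3 h and at 24 h is named, and for each member the 2 nearest profiles among genes with a mean log2 CPM of at least 3. The effective length deposited by the authors served only the length offset.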

Additional observations from a re-analysis of the deposited data

Results flagged for a closer look

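An edgeR contrast called the effect of LatB different between 24 h and 3 h for 3 of the 10 genes, when 27.9% of all genes were called. The members were thus called about as often as other genes. The difference was -1.06 for DUSP4 (SE 0.25, adjusted p 0.00705), -0.753 for DUSP10 (SE 0.14, adjusted p 0.00152) and -0.755 for SPRY2 (SE 0.14, adjusted p 0.00158) on the log2 scale. For DUSP4 and DUSP10 the genes were higher at both times and by less at 24 h. For SPRY2 the effect was called at 3 h (0.59) and not at 24 h (-0.17). The 2 effects use different control groups, and the difference holds changes of the controls as well.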

How the results depend on the processing

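Over 29 alternative settings, 134 of 163 counts of called members stayed within 1.5 times the value reported, and 29 did not. The share of all genes called was not computed for these settings, so their counts cannot be set against that of all genes. Of 1630 fold changes of single genes, 1450 kept direction and side of the threshold, 82 lost a call, 33 gained one and 65 changed sign, 63 of the last being called in neither fit. The cause of these changes was not tested. A fold of at least 1 (log2) left 2 members called at 3 h, 1 at 6 h, 1 at 12 h, 0 at 24 h, 0 from 3 h to 6 h, 0 from 6 h to 12 h, 0 from 12 h to 24 h and 1 in the difference of the 24 h and 3 h effects, since that threshold only removes calls. The length offset left 3 from 3 h to 6 h and 0 from 12 h to 24 h. Limma with either pseudocount left 3 at 6 h, 2 from 3 h to 6 h and 0 from 12 h to 24 h. With only the groups compared in the fit, 1 was called from 6 h to 12 h, 0 from 12 h to 24 h and 5 in the difference of effects. With the 12 h group left out, chosen after seeing the data, the last count was 6. With each library left out in turn, 3 to 6 members were called at 3 h, 4 to 5 at 6 h, 4 to 7 at 12 h, 2 to 4 at 24 h, 0 to 0 between the controls, 3 to 5 from 3 h to 6 h, 2 to 5 from 6 h to 12 h, 1 to 3 from 12 h to 24 h and 3 to 4 in the difference of effects. The libraries showed no clear pairing by replicate number. Of 36 pairs with the same number, 2 had a correlation of deviations over 0.1 (range -0.24 to 0.12). Of 70 pairs with other numbers, 4 did (range -0.14 to 0.24). The labels do not say whether equal numbers belong together, so pairing is not excluded. With the replicate block, 6, 5, 4 and 4 members were called at 3, 6, 12 and 24 h, 0 between the controls, 5, 2 and 1 between successive LatB times and 3 in the difference of effects, as without it. The groups of 2 libraries limit the precision at 12 h and in control 24 h, and the low counts of SPRY1 and SPRY4 that of those genes.

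Without scaling, the sign changed for SPRY4 (-0.0136) at 3 h, SPRY1 (-0.0237) at 6 h, SPRED1 (0.0233) at 24 h, DUSP4 (0.0643) and DUSP10 (0.0489) from 6 h to 12 h, DUSP1 (0.00437) and DUSP6 (0.00402) from 12 h to 24 h. With the length offset, the sign changed for SPRED1 (0.27) at 24 h, DUSP10 (0.0644) and SPRED1 (-0.10) from 6 h to 12 h, SPRED1 (0.14) in the difference of the 24 h and 3 h effects. With the replicate block, the sign changed for DUSP4 (0.0146) from 6 h to 12 h. By limma on log2(TPM + 1), the sign changed for SPRY1 (-0.0529) at 6 h, SPRED2 (-0.0269) at 12 h, SPRED1 (0.23) at 24 h, DUSP4 (0.00343), DUSP10 (0.15) and SPRED1 (-0.00201) from 6 h to 12 h, DUSP6 (0.0199) and SPRED1 (0.16) in the difference of the 24 h and 3 h effects. By limma on log2(TPM + 0.1), the sign changed for SPRY1 (-0.0569) at 6 h, SPRED2 (-0.0383) at 12 h, SPRED1 (0.25) at 24 h, DUSP4 (0.000704), DUSP10 (0.16) and SPRED1 (-0.00247) from 6 h to 12 h, DUSP6 (0.0210) and SPRED1 (0.17) in the difference of the 24 h and 3 h effects. With the other control as reference, the sign changed for DUSP6 (0.0536), SPRY4 (0.51) and SPRED2 (0.0530) at 6 h, SPRY1 (0.0144), SPRY2 (0.00441) and SPRY4 (0.25) at 12 h, SPRY4 (-0.22) at 24 h.

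With each library left out in turn, the log2 fold change of these genes spanned 0, with the lowest and highest values in parentheses. At 3 h, these were SPRY1 (-0.14 to 0.31) and SPRY4 (-0.13 to 0.13). At 6 h, these were DUSP6 (-0.11 to 0.0175) and SPRY1 (-0.0948 to 0.16). At 12 h, these were DUSP6 (-0.18 to 0.35) and SPRED2 (-0.40 to 0.39). Between the controls, these were SPRED1 (-0.0766 to 0.00459). In the difference of the 24 h and 3 h effects, these were DUSP6 (-0.25 to 0.14). At 24 h, these were SPRED1 (-0.0376 to 0.0364). From 3 h to 6 h, these were SPRY1 (-0.27 to 0.19). From 6 h to 12 h, these were DUSP1 (-0.40 to 0.0884), DUSP4 (-0.49 to 0.27), DUSP6 (-0.13 to 0.40), SPRY4 (-0.71 to 0.0904), SPRED1 (-0.0296 to 0.0280) and SPRED2 (-0.27 to 0.52). From 12 h to 24 h, these were DUSP1 (-0.25 to 0.24), DUSP4 (-0.60 to 0.17), DUSP5 (-0.30 to 0.62), DUSP6 (-0.25 to 0.28), SPRY4 (-0.16 to 0.64) and SPRED2 (-0.0638 to 0.73).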
